A study of Mus musculus with 12 samples.

Results

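The 3 arrays described here are those of untreated wild-type colon organoids, taken from the 12 arrays of the series because they are titled wild-type control. They carry colon crypts of 3 C57BL/6 wild-type mice, grown in Matrigel as 3-dimensional cultures enriched in stem cells and given ethanol, the vehicle of the study's hormone treatment, without hormone. Mouse 1 was labelled male and 2 months old, mouse 2 female and 3 months old, and mouse 3 female and 2 months old. The vehicle was renewed every 48 h, the design text gives 72 h of exposure and the sample descriptions give 62 h, and 100 ng of RNA per culture was labelled with Cy3. The 3 wild-type cultures given calcitriol at 100 nM come from the same mice and are used below only to see whether a difference between mice recurs. No groups were compared, so no test was made, and every statement is about levels and their spread over 3 mice.

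The colon is lined by crypts in which stem cells at the base, marked by Lgr5, give rise to dividing progenitors and then to absorptive colonocytes, mucus-secreting goblet cells, hormone-secreting enteroendocrine cells and rare tuft cells. In an organoid the epithelium grows without the fibroblasts, vessels, nerves and immune cells that surround it in the tissue, and the medium and gel have to supply the niche signals, chiefly Wnt, R-spondin, epidermal growth factor and an inhibitor of bone morphogenetic proteins. Such cultures keep a balance between stem cell renewal and differentiation that depends on the medium.

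Each spot's background-subtracted signal was taken to log2 and the 75th percentile of its array was subtracted, so level 0 is the signal that 75% of spots did not exceed, and a step of 1 is 2-fold. The probe of highest mean level stood for a gene. A gene was called on where the extraction software marked that probe well above background in every mouse, and off where it marked none of its probes on any array. Levels rank the brightness of probes, which differ in affinity, so the order of genes is one of signal and not of transcript number. Because these are whole cultures, fewer cells of a type and less RNA per cell cannot be told apart.

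Of 21133 genes with a symbol, 13438 (63.6%) were on, 3565 (16.9%) were off and the other 4130 were above background on some arrays or by another probe. Mouse 2's array stood apart at low signal. It had 16843 genes on, against 14260 in mouse 1 and 14534 in mouse 3, and 2374 of the genes with mixed calls were on in mouse 2 only. Odorant receptors, which belong to the olfactory neurons of the nose, gave a measure of that background: 516 of 1069 were above background on mouse 2's array, 126 on mouse 1's and 195 on mouse 3's. Required on all 3 arrays, 71 of them (6.64%) remained, with a median level of -3.40. A call at a level near -4 is therefore weak, whereas 2 odorant receptors in all were on with a mean level above 0. Leaving out mouse 2 moved the number of genes on to 13639. The 308 spots of the negative control were above background 2, 1 and 6 times in mice 1, 2 and 3 (0.649%, 0.325% and 1.95%, with exact 95% upper limits of 2.33%, 1.80% and 4.19% that cover counting error only), and no spot was saturated.

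Levels agreed closely between mice for most genes on. The SD over the 3 mice had a median of 0.25, and 11105 genes (82.6% of those on) stayed within 2-fold. Pearson's r across the genes on was 0.974 between mice 1 and 2, 0.979 between mice 1 and 3 and 0.985 between mice 2 and 3, as a description across genes that are not independent.

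The sex labels of 2 mice went against the sex-linked genes. Xist, the RNA that coats the inactive X chromosome, lay at 1.55 in mouse 1, -6.42 in mouse 2 and 1.21 in mouse 3. Eif2s3y, a Y-linked translation factor gene, lay at -7.54, 2.83 and -6.96 in the same order. Mouse 1, labelled male, thus had the signal of Xist and none of Eif2s3y above background, and mouse 2, labelled female, had the reverse. Below the mice are called by number, and nothing is drawn from their labelled sex.

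**Figure D1:**
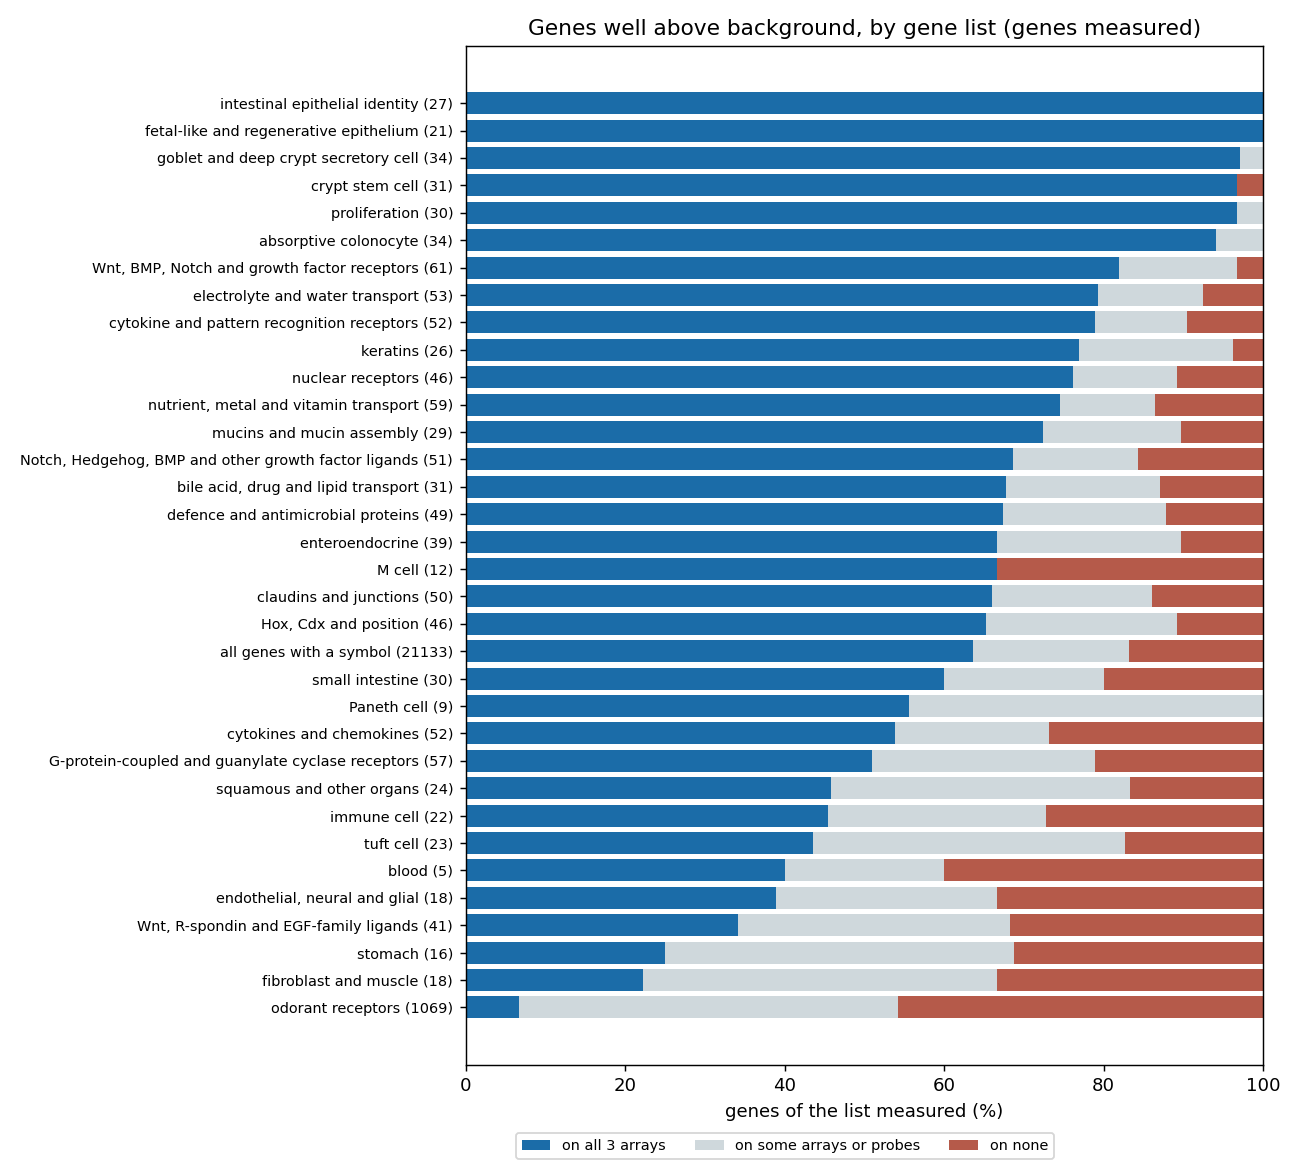
Share of measured genes that were on all 3 arrays (blue), on some arrays or by another probe (grey) and on none (red), for 32 gene lists, all genes with a symbol and the odorant receptors, with the number measured in parentheses. Epithelial identity and fetal-like genes were all on, all genes lie at 63.6% and odorant receptors at 6.64%.

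The epithelial and colonic identity of the cultures was plain in all 3 mice. All 27 genes of the identity list were on, against 63.6% of all genes, with a median level of 4.64. Cdx2, the homeobox factor that sets intestinal fate, lay at 4.75, 4.70 and 4.97 in mice 1, 2 and 3, and its relative Cdx1 at 5.37, 6.00 and 5.72. Hnf4a, a nuclear receptor of differentiated gut epithelium, averaged 6.42 ± 0.18 (SD, n = 3). Vil1, which bundles actin in microvilli, averaged 5.58 ± 0.40 and Epcam, the epithelial adhesion molecule, 5.07 ± 0.13 (SD, n = 3 each). The brightest member was Lgals4, a galectin of the gut surface, at 8.38 ± 0.27 (SD, n = 3), percentile 99.9 of all genes.

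Among the keratins and junction genes, those of simple epithelia were the brightest. Of 26 keratins, 20 were on (76.9%, against 63.6% of all genes), among them Krt4, Krt5, Krt13, Krt14 and Krt15, which belong to stratified epithelia. The partners Krt8 and Krt18, the filament pair of simple epithelia, averaged 7.87 ± 0.37 and 8.23 ± 0.17 (SD, n = 3 each), and Krt19 8.16 ± 0.19. Krt7, a keratin of ductal and bladder epithelium that is sparse in normal colon, reached 6.32, 6.61 and 6.69 in mice 1, 2 and 3, at percentile 98.6. Among claudins, which seal the space between cells, Cldn7 averaged 6.98 ± 0.14 and Cldn3 6.08 ± 0.18, and the pore-forming Cldn2, known from crypt bases, 0.97 ± 0.65 (SD, n = 3 each). Cldn1 and Cdh5, the cadherin of endothelium, were off.

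Stem cell and cell cycle genes were on almost without exception. In the stem cell list 30 of 31 genes were on (96.8%, against 63.6% of all genes) and 1, the co-receptor Rgmb, was off. The dimmest of those on lay near the level where a call is weak. In the proliferation list 29 of 30 were on (96.7%), with the kinase Aurkb above background in mice 2 and 3 only. Lgr5, the R-spondin receptor that marks cycling stem cells, lay at 3.86, 3.32 and 3.44 in mice 1, 2 and 3, at percentile 88.1 of all genes by its mean. Ascl2, the transcription factor that maintains Lgr5 cells, lay at 3.92, 4.59 and 4.50. The 3 mice stayed within 2-fold of each other for both genes. Lrig1, which restrains ErbB signalling in stem cells, averaged 4.19 ± 0.22, and Smoc2, a secreted stem cell marker, 3.17 ± 0.38 (SD, n = 3 each). The Wnt target Axin2, at 0.41 ± 0.36 (SD, n = 3), was on in every mouse at percentile 63.0. The brightest of the list were Phlda1 at 6.36 ± 0.08, Prom1, a membrane protein of crypt cells, at 6.29 ± 0.27 and the chloride importer Slc12a2 at 6.26 ± 0.06. Mki67, a nuclear protein of cycling cells, lay at 5.0, 5.62 and 5.63, and Pcna, the sliding clamp of DNA replication, at 4.94, 5.54 and 5.42. For both, mouse 1 was the lowest. The same held for 26 of the 29 proliferation genes on, where mouse 1 was lowest for 6245 of all 13438 genes on.

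Goblet cell genes were on in 33 of 34 cases (97.1%, against 63.6% of all genes), at a median level of 0.82. Muc2, the gel-forming mucin of the colon, lay at 2.12, 2.22 and 1.60 in mice 1, 2 and 3. Tff3, a trefoil peptide secreted with it, lay at 6.06, 5.36 and 4.82, and Agr2, the disulphide isomerase needed for mucin folding, at 6.27, 5.94 and 5.23. Mouse 3 was the lowest for each of these genes, and mouse 1 was highest for 2 of them. Across the list mouse 3 was lowest for 23 of the 33 genes on, where it was lowest for 3614 of all 13438 genes on. Atoh1, which commits progenitors to the secretory lineage, averaged 0.51 ± 0.40, and Spdef, which matures goblet cells, 2.32 ± 0.15 (SD, n = 3 each). Reg4 and Kit, markers of the deep crypt secretory cells that neighbour colonic stem cells, averaged 1.87 ± 0.61 and -1.99 ± 0.93. Retnlb, a goblet product that bacteria and worms induce in the living gut, was near the floor of detection at -3.55 ± 0.45 (SD, n = 3 each). Among the mucins, the membrane-bound Muc13 was brightest at 7.0 ± 0.46 and Muc4 averaged 3.77 ± 0.37 by its brighter probe (SD, n = 3 each). The other probe of Muc4 averaged -1.27. Muc1, a membrane mucin, differed most within the list, at -0.69, -2.70 and -3.98 in mice 1, 2 and 3.

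Absorptive cells were represented by 32 of 34 genes on (94.1%, against 63.6% of all genes). Krt20, the keratin of differentiated surface cells, lay at 3.86, 3.98 and 3.99 in mice 1, 2 and 3. The carbonic anhydrases Car2 and Car1, which supply bicarbonate in the colon, averaged 7.23 ± 0.38 and 7.12 ± 0.22 (SD, n = 3 each). Car4, a membrane-anchored relative, lay at 1.22, 1.17 and 2.75, so that mouse 3 stood above the other mice on the vehicle arrays, but at 2.53, 2.71 and 2.54 on the calcitriol arrays, which lay on the slide of mouse 3's vehicle array. The part of the slide in this was not tested. A second probe of Car4 gave -3.53. The water channel Aqp8 averaged 2.37 ± 0.23 and the chloride-bicarbonate exchanger Slc26a3, characteristic of the colonic surface, 1.19 ± 0.28. Guca2a, the precursor of guanylin, averaged 3.64 ± 0.11.

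Hormone cells left a clear but dimmer trace. Of 39 enteroendocrine genes 26 were on, a share of 66.7% that lies near the 63.6% of all genes, and none passed the 90th percentile. Chga, a granule protein common to these cells, lay at 1.33, 1.42 and 0.16 in mice 1, 2 and 3, and Chgb at 3.83, 3.97 and 2.66. Pyy, the peptide of colonic L cells, lay at 2.55, 2.58 and 0.84. For these 3 genes mouse 3 was the lowest. Gcg, the glucagon and GLP-1 precursor of the same L cells, lay at -2.10, -0.39 and -1.09, and Insl5, a peptide of distal colon L cells, at -0.89, 0.89 and -0.35, so that mouse 1 was the lowest for both. Across the 26 genes on, mouse 3 was lowest for 12, mouse 1 for 11 and mouse 2 for 3. Tph1, which makes serotonin, averaged -1.92 ± 0.97 (SD, n = 3). Neurog3, the factor that starts endocrine differentiation, was on at 1.22 ± 0.30 (SD, n = 3). Sst and Neurod1 were above background in mouse 2 only, the array with the raised low signal. Isl1 and Pax6 were off.

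Most tuft cell genes were near or below detection, and the M and Paneth cell lists were mixed. In the tuft list 10 of 23 genes were on, a share of 43.5% against 63.6% of all genes, with a median level of -4.16. The count depended on the flag: by a second flag of the software, described below, 17 were on, beside 16337 of all 21133 genes. Dclk1, the kinase used as a tuft marker, lay at -4.76, -3.00 and -3.78, and a further probe of it was not well above background on any array. Pou2f3, the factor that specifies tuft cells, averaged -4.03 ± 0.75, and Il25, the tuft cytokine, -3.88 ± 1.20 (SD, n = 3 each). The means of all 3 genes lie below the median of the odorant receptors that were on. Of the M cell list 8 of 12 genes were on (66.7%), near the 63.6% of all genes. Gp2, Spib, Sox8 and Ccl20 were off, and the 8 members on include genes that other epithelial cells use, such as Pglyrp1 and Anxa5. In the Paneth list Lyz1, the lysozyme gene of these cells, lay at 0.97, 0.50 and -0.53, and Mmp7, the protease that processes their defensins, at 3.02, 2.32 and 1.81. Both were on in all mice. Of the alpha-defensins, Defa3 was on, and Defa21 and Defa26 were above background on mouse 2's array only. The mean of Defa3 lies about at the median of the odorant receptors that were on, so its call is weak, and mouse 2 was highest.

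**Figure D2:**
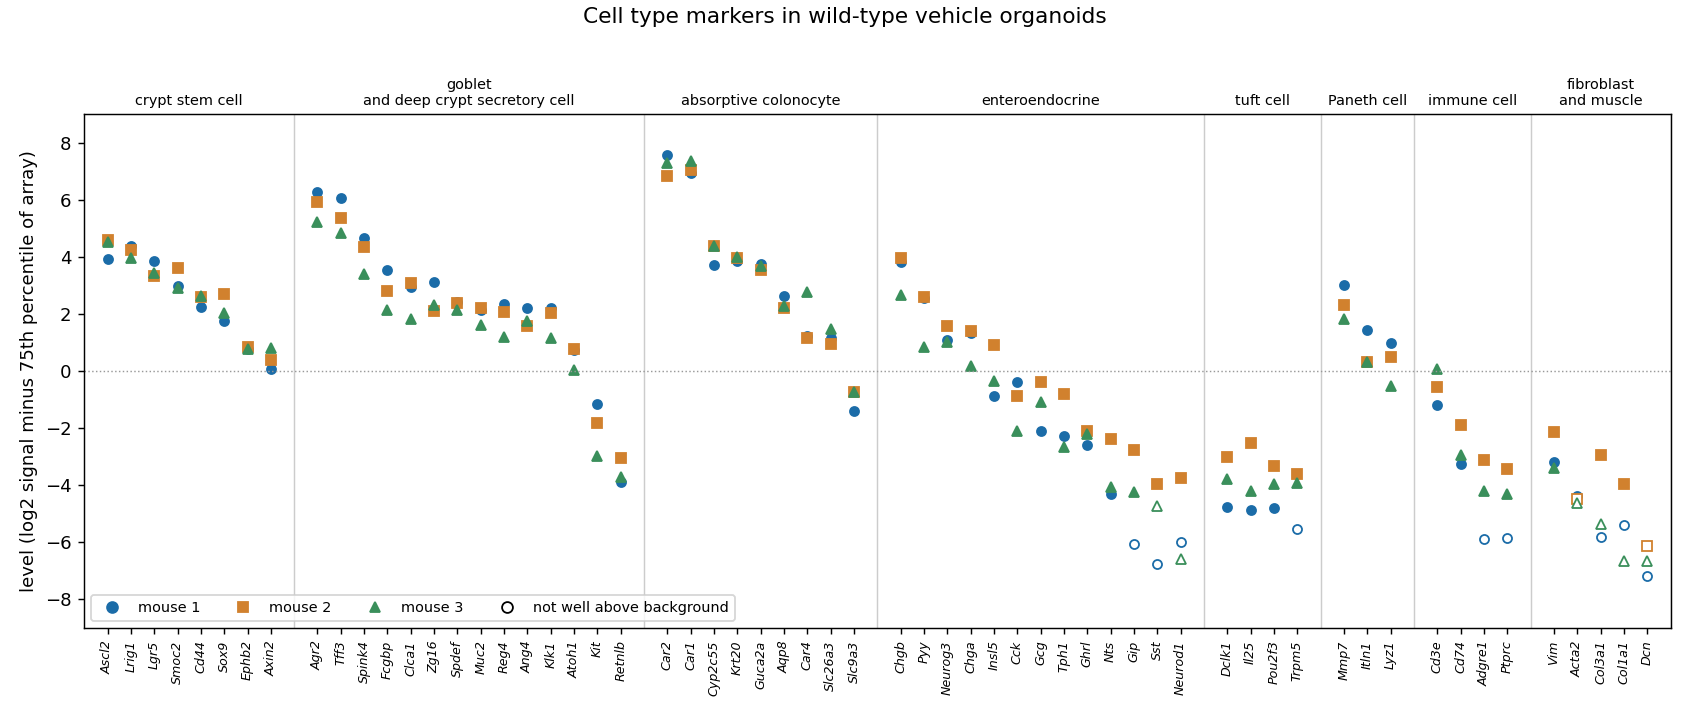
Level (log2 signal minus the 75th percentile of the array, y axis) of the marker genes of 8 cell types in the 3 wild-type vehicle cultures, 1 symbol per mouse, hollow where not well above background. Stem, goblet and colonocyte markers lie mostly above 0, tuft markers below -2, and Dcn has hollow symbols only.

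Genes of fetal-like or regenerating epithelium were the list of highest median level. This list holds genes that the literature links to fetal gut spheroids and to epithelium repairing injury, several of which also serve in normal cells. All 21 were on, against 63.6% of all genes, at a median level of 5.03, and 12 were above the 90th percentile. S100a6, a calcium-binding protein, lay at 8.71, 8.68 and 8.73 in mice 1, 2 and 3. Ly6a, a surface protein known as Sca-1, lay at 7.63, 7.39 and 7.39, and Clu, a secreted chaperone that marks revival stem cells after injury, at 7.04, 6.97 and 7.12. All 3 genes kept within 0.24 of a log2 unit between mice. Anxa1, an annexin of repairing epithelium, averaged 6.82 ± 0.14 and Ccn2, a target of YAP signalling, 5.72 ± 0.34 (SD, n = 3 each). Because these lists hold different genes and freshly isolated crypts were not analysed here, the level of the list says nothing of whether culture changed it.

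Markers of the cells around the epithelium were on in a smaller share than the 63.6% of all genes, but for immune genes this depended on the flag. The second flag of the software asks only for a signal that is positive and significant over the local background. By it 16337 of all 21133 genes were on, 9 of the 18 fibroblast and muscle genes, 17 of the 22 immune genes and 11 of the 18 endothelial, neural and glial genes. The immune share was then about that of all genes, and the other 2 shares were still smaller. The counts that follow are by the first flag. Of 18 fibroblast and muscle genes 4 were on (22.2%), and of the defining genes Dcn, Lum, Pdgfra and Grem1 were off. The 4 on were Fn1, Sparc, Vim and Col1a2, of which Fn1 was the brightest at 2.42 ± 0.25 (SD, n = 3). Col1a2 had a mean below the median of the odorant receptors that were on, and a further probe of Sparc was not above background on any array. Fn1 is a matrix protein that epithelial cells can make as well. Vim lay at -3.20, -2.14 and -3.40. Of 22 immune genes 10 were on (45.5%). Ptprc, the pan-leukocyte antigen CD45, was above background in mice 2 and 3 only, at -5.85, -3.45 and -4.30 in mice 1, 2 and 3, and of the B-cell genes Cd79b was on in every mouse and Cd79a and Ms4a1 were off. Cd74, which guides antigen presentation by MHC class II, lay at -3.26, -1.88 and -2.94, and the class II gene H2-Ab1 was on as well. Itgam, an integrin of myeloid cells, read 2.92, 2.56 and 3.63 by its brightest probe, while its other probes averaged -3.40 and -3.65. Cd14, the lipopolysaccharide co-receptor, had 1 probe and averaged 3.07 ± 0.50, and Cd3e, of the T-cell receptor complex, -0.56 ± 0.62 (SD, n = 3 each). Of the 18 endothelial, neural and glial genes 7 were on. Among them Kdr, a vascular growth factor receptor, read 2.12 ± 0.43 by 1 probe and was not above background on any array by another (SD, n = 3). Of the endothelial genes Vwf averaged -0.61 ± 0.59 and Pecam1 -2.40 ± 0.58 (SD, n = 3 each), and both were on in every mouse, as was Plvap, while Cdh5 and Tek were off. What the bright probes of Itgam and Kdr measure was not tested.

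Squamous genes gave a mixed picture. Krt13 and Krt4, keratins of stratified mucosa, averaged 2.87 ± 1.22 and 2.37 ± 0.44 (SD, n = 3 each), with Krt13 at 1.90, 2.46 and 4.24 in mice 1, 2 and 3. On the calcitriol arrays, which shared a slide with mouse 3's vehicle array, Krt13 lay at 3.51, 3.93 and 3.76. The part of the slide in this was not tested. A second probe of Krt13 averaged -1.17. Krt5 and Krt14, of the basal layer, were on, Krt5 at -2.39 ± 0.13 by its brighter probe. The other probe of Krt5 averaged -5.01 and was above background on 1 array. Trp63, the factor of basal squamous cells, read 1.89 ± 0.09 by 1 of its probes and was not above background by the other, so it cannot be placed. Of the bladder genes Upk3a was on in every mouse and Upk2 off, and Sprr3, of squamous epithelium, was off.

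Position along the body is recorded in the Hox genes, homeobox factors whose 4 clusters retain the head-to-tail address of a tissue. The Hoxa cluster had 11 of 11 measured genes on, Hoxb 9 of 10, Hoxd 7 of 9 and Hoxc 0 of 9, beside 63.6% of all genes. Hoxb13, a gene of the hindmost gut, lay at 5.96, 5.60 and 5.36 in mice 1, 2 and 3, percentile 97.0 and the highest level of any Hox gene. Hoxa7 lay at 2.10, 2.89 and 3.20 and Hoxd13, which also acts at the tail end, at 1.31, 0.56 and 1.45. Hoxa13, a further posterior gene, averaged -0.35 ± 0.26 (SD, n = 3). Within the Hoxc cluster the counts above background were 0 of 9 in mouse 1, 7 of 9 in mouse 2 and 2 of 9 in mouse 3, and its median level was -7.29, -3.63 and -5.30, beside medians over the odorant receptors of -7.30, -4.20 and -6.41. The Hoxa genes spanned -3.13 to 2.73 by their means. Hoxb1 and Hoxd1, the front genes of their clusters, were off.

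Genes of the small bowel and stomach were in part on. In the small intestine list 18 of 30 were on (60.0%), near the 63.6% of all genes, with a median level of -2.52. Sis, the sucrase-isomaltase of the brush border, Apoa1, Slc2a2 and Gata4, a factor of the proximal gut, were off. Lct, Fabp1 and Apoa4, enzymes and lipid carriers of the small bowel, were above background on mouse 2's array only. Slc10a2, the ileal bile acid importer, was on at 1.01, 1.30 and 0.50 in mice 1, 2 and 3, and Mep1b, a brush border protease, at 4.38, 3.70 and 3.65. Of the 16 stomach genes 4 were on (25.0%, against 63.6% of all genes). By the second flag, which also called more of all genes, 11 were on. Vsig1, a junction protein of gastric epithelium, averaged 1.04 ± 0.51 and Gkn3, a gastrokine, -1.64 ± 0.16 (SD, n = 3 each). Pdx1, a factor of duodenum and pancreas, and Atp4b, a subunit of the gastric proton pump, were the others on, and Gast, Gkn1, Gkn2, Cblif and Sox2 were off.

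Ion and water transport was covered by 42 of 53 genes on (79.2%, against 63.6% of all genes). Atp1b1, the beta subunit of the sodium pump that drives it, lay at 6.46, 5.95 and 6.08 in mice 1, 2 and 3. Slc12a2, which loads chloride for secretion, lay at 6.20, 6.26 and 6.32. Cftr, the apical chloride channel through which it leaves, averaged -1.92 ± 0.86 (SD, n = 3). The recycling potassium channel Kcnq1 averaged 4.52 ± 0.11, and its colonic partner Kcne3 1.90 ± 0.63. Of the subunits of the epithelial sodium channel, which aldosterone raises in distal colon, Scnn1a was on at 2.27 ± 0.54 (SD, n = 3), Scnn1b was above background in mice 1 and 2 only and Scnn1g was off. Atp12a, the colonic proton-potassium pump, lay at 1.78, 0.41 and -0.24. Aqp4, a water channel, averaged 4.17 ± 0.54 (SD, n = 3).

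Nutrient transporters were on in 44 of 59 cases (74.6%, against 63.6% of all genes). Slc39a4, the zinc importer, had the highest level of the list, 7.18 ± 0.12, and Slc16a3, a lactate exporter, averaged 5.44 ± 0.14 and Slc2a1, the general glucose importer, 5.37 ± 0.09 (SD, n = 3 each). The carriers of short-chain fatty acids, the colon's bacterial fuel, were dim: Slc16a1 averaged -2.92 ± 0.53 and Slc5a8 -3.64 ± 1.29. Both were on in every mouse, but the mean of Slc5a8 lies below the median of the odorant receptors that were on. Slc40a1, the iron exporter, lay at 3.49, 1.85 and 2.21. The peptide importer Slc15a1 was above background in mouse 3 only, and Slc6a19 and Slc34a2 were off. For bile acids and drugs 21 of 31 genes were on (67.7%), near the share of all genes. Abcc3, a basolateral exporter, averaged 4.29 ± 0.28, Abcb1a, the drug pump P-glycoprotein, 3.32 ± 0.21 and Abcg2, a further drug pump, 1.49 ± 0.33 (SD, n = 3 each). Slc10a1, the bile acid importer of liver, read 8.63 by 1 probe and was not above background by the other, so no level is given to the gene.

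Most receptors through which the niche acts were on. Of 61 receptors for Wnt, BMP, Notch and growth factors 50 were on (82.0%, against 63.6% of all genes). Egfr, the receptor of epidermal growth factor, lay at 2.42, 2.78 and 2.18 in mice 1, 2 and 3, and its relative Erbb2 at 3.31, 2.58 and 2.44. Erbb3, which lacks kinase activity, averaged -1.74 ± 0.53 (SD, n = 3), and Erbb4 was off. Tgfbr2, the ligand-binding receptor of transforming growth factor beta, averaged 5.01 ± 0.15 and Bmpr1a, a BMP receptor, 1.82 ± 0.07. Notch1 averaged -1.46 ± 0.59 (SD, n = 3 each). The level of Tgfbr2 is that of its brighter probe, and the other averaged 0.64. Of the Frizzled receptors for Wnt, Fzd5 averaged -1.38 ± 0.14 (SD, n = 3). Pdgfra, a receptor of stromal cells, was off.

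Of the 41 ligands of the Wnt, R-spondin and EGF-family list 14 were on (34.1%, against 63.6% of all genes). By the second flag, which also called more of all genes, 26 were on. The ErbB ligands were the bright members. Hbegf lay at 3.09, 3.19 and 2.88 in mice 1, 2 and 3, Areg at 2.38, 3.40 and 3.19 and Ereg at 1.73, 2.48 and 2.91. Mouse 1 was lowest for Areg and Ereg. Btc averaged 0.25 ± 0.32 and Tgfa -1.79 ± 0.30 (SD, n = 3 each), and Egf itself was above background in mice 1 and 2 only. The Wnt ligands Wnt3, Wnt3a and Wnt2b and the R-spondins Rspo1, Rspo2 and Rspo4 were off, and Rspo3 was above background in mouse 2 only. Wnt3 is the ligand that Paneth cells supply in the small intestine. Wnt1 was on by 1 probe and was not above background by the other. Dkk1, Dkk2 and Wif1, secreted inhibitors of Wnt, were off as well.

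Among the other growth factor ligands 35 of 51 were on (68.6%), near the 63.6% of all genes. Ihh, the hedgehog signal of the colonic surface to the stroma, lay at 3.73, 3.81 and 3.55, and Shh, its relative, was off. Pdgfa, which acts on stromal cells, averaged 5.23 ± 0.21, Gdf15, a stress hormone, 5.07 ± 0.44 and Vegfa 3.81 ± 0.39 (SD, n = 3 each). Bmp2 lay at 2.95, 1.38 and 2.04, and Bmp4 was above background in mouse 1 only. The Notch ligands Jag1, Dll4 and Dll1 averaged 0.93 ± 0.27, -2.53 ± 0.48 and -3.26 ± 0.65 (SD, n = 3 each). The stromal factors Hgf, Fgf7, Fgf10 and Grem1 were off.

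Nuclear receptors were on in 35 of 46 cases (76.1%, against 63.6% of all genes). Vdr, the vitamin D receptor that the study deletes in its other animals, lay at 1.13, 1.66 and 2.01 in mice 1, 2 and 3, percentile 72.5. Its partner Rxra averaged -1.19 ± 0.49 (SD, n = 3). Pparg, a fatty acid sensor, averaged 4.63 ± 0.26, the glucocorticoid receptor Nr3c1 3.29 ± 0.22, the bile acid receptor Nr1h4 1.90 ± 0.34 and the xenobiotic receptor Nr1i2 0.86 ± 0.09. Nr3c2, which binds aldosterone, was on at -1.96 ± 0.56. The level of Nr3c1 is that of its brighter probe, and the other averaged -1.08. Of the membrane receptors that bind hormones, nucleotides and metabolites 29 of 57 were on (50.9%, against 63.6% of all genes). Gprc5a, an orphan receptor induced by retinoic acid, averaged 6.17 ± 0.22, Vipr1, which binds vasoactive intestinal peptide, 4.56 ± 0.33, and Gucy2c, the guanylin receptor, 1.67 ± 0.06 (SD, n = 3 each). A dimmer probe of Vipr1 averaged 0.16.

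Cytokine receptors and cytokines were both read. Of 52 receptors for cytokines and microbial products 41 were on (78.8%, against 63.6% of all genes). Ifngr1, a chain of the interferon gamma receptor, averaged 4.84 ± 0.15 and Tnfrsf1a, the main tumour necrosis factor receptor, 3.15 ± 0.02. The Toll-like receptors Tlr2 and Tlr4, which recognise bacterial cell walls, averaged 0.78 ± 0.07 and -0.13 ± 0.21, and the flagellin receptor Tlr5 -2.82 ± 0.34 (SD, n = 3 each). In the cytokine list 28 of 52 were on (53.8%, against 63.6% of all genes). Il18, made constitutively by gut epithelium, lay at 2.76, 3.36 and 2.97, and Il33, an alarmin, at 2.74, 1.44 and 1.95. Ccl28, which attracts antibody-making cells, averaged 0.71 ± 0.31 (SD, n = 3). Il1a, Il1b, Il6, Il10, Cxcl2 and Ccl20 were off. Ifng was above background on mouse 2's array only.

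Secreted defence proteins were on in 33 of 49 cases (67.3%), near the 63.6% of all genes. Wfdc2, a protease inhibitor, averaged 6.91 ± 0.13 and Dmbt1, a scavenger protein that binds bacteria, 5.42 ± 0.64 (SD, n = 3 each). Pigr, which carries antibodies into the lumen, lay at 4.79, 4.58 and 4.18 in mice 1, 2 and 3. Nox1, the colonic superoxide source, averaged 1.73 ± 0.33. Reg3b and Reg3g, lectins that bacteria induce in the gut, were above background on 1 and 2 arrays. Lcn2, an iron-chelating protein of inflamed epithelium, was on at -2.66 ± 0.14 (SD, n = 3). The acute phase genes differed between mice. Saa1 lay at 3.16, 0.49 and 0.17 and Saa2 at 2.74, 0.01 and -0.67, and both were at least 4-fold above the other mice in mouse 1.

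Among the 64 brightest genes, 28 encode ribosomal proteins and 6 are predicted genes, and the other 30 were read singly. Glycolytic enzymes (Aldoa at 8.97, Gapdh at 8.57 and Pgk1 at 8.30), the cytoskeletal genes Actb and Tuba1b, and Tpt1, Ppia, Fau, Ubb, Rack1, Cox6a1, H2ac12 and Rn4.5s are active in nearly every cell. Of epithelial interest were Krt18, Krt19, S100a6, Lgals4, Ly6c1, Anxa2 and Gpx2, a glutathione peroxidase of gut epithelium that averaged 8.19 ± 0.11 (SD, n = 3). For 8 of the 30 genes (Slc10a1, Kctd14, Glrx2, Zfp628, Med16, Elk1, Ttc38 and Milr1) probes disagreed by more than 4 log2 units, and 15 had 1 probe each, Exosc2 among them. Over all genes on, 4399 had several probes, 1112 of them with such a gap and 405 with a probe that was off. The brightest probe can thus overstate a gene, and it was not tested which probe of a gene is right.

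Differences between mice above 4-fold were found for 379 of the 13438 genes on (2.82%). The number depended on the scaling: it was 57 with normexp background correction and 1776 with the median of each array subtracted in place of the 75th percentile. Left out in turn, mouse 1 brought the number to 98, mouse 2 to 102 and mouse 3 to 333. Most of the 379 were dim: 334 had a mean level at or below 0, and mouse 2 was highest for 243 of those. Of the 45 with a mean level above 0, mouse 1 was highest for 30, mouse 2 for 7 and mouse 3 for 8. The same mouse was highest on the calcitriol arrays for 37 of these 45 (82.2%), against 4793 of 8444 (56.8%) over all genes on with a mean level above 0. For the 334 dim genes it was so in 142 cases (42.5%). The share over all genes on was 54.5%, but that set includes the brighter genes and is not matched in level. Neither comparison is matched in range. The 45 and the 334 were chosen for a range over 4-fold, and the sets beside them were not. The calcitriol arrays lay on 1 slide with mouse 3's vehicle array, and the vehicle arrays of mice 1 and 2 on another.

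The genes of largest range showed several patterns. Stk25, a kinase gene, lay at 4.39, -1.48 and 4.12 in mice 1, 2 and 3, but at 4.10, 4.18 and 4.18 on their calcitriol arrays. Abcf3, a gene of the ATP-binding cassette family, lay at 2.53, -3.19 and 2.29, against 2.38, 2.35 and 2.28 with calcitriol, and Sppl3, an intramembrane protease gene, at 3.98, -0.53 and 4.04, against 3.86, 3.98 and 3.92. These 3 genes, and Poc5, a centriole gene chosen after its values were seen, were low on mouse 2's vehicle array alone. Pnp2, a purine nucleoside phosphorylase gene, lay at 1.1, 2.54 and -2.29, and at 1.24, 2.41 and -2.34 with calcitriol. Pyroxd2 lay at 0.40, -3.64 and -1.08, and at 0.12, -4.02 and -1.43 with calcitriol, and Lrg1, a secreted glycoprotein of the acute phase, at 1.40, -0.62 and -2.51, and at 1.37, 0.04 and -2.13. In these 3 genes each mouse kept its place in both cultures. Sftpd, a collectin, lay at 1.51, -2.29 and -2.48 and was also highest in mouse 1 with calcitriol. Saa2 kept the order of mice at a lower level with calcitriol (-0.24, -2.77 and -3.01). Tm4sf4 was highest in mouse 3 in both cultures, at -0.25 and -0.15. Mxra8, 4930571K23Rik and 1110032A03Rik, the remainder of the 12 largest, had means between -3.40 and -3.14, and 1110032A03Rik was highest in mouse 2 on the vehicle arrays but not with calcitriol, at -4.99, -1.65 and -3.35, and at -4.73, -4.54 and -3.89 with calcitriol. Of the 45 brighter genes, 17 kept the full order of mice at over 4-fold on the calcitriol arrays, among them Mt2, a metallothionein, Aldh1a3, which makes retinoic acid, and the cell cycle inhibitor Cdkn2a.

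**Figure D3:**
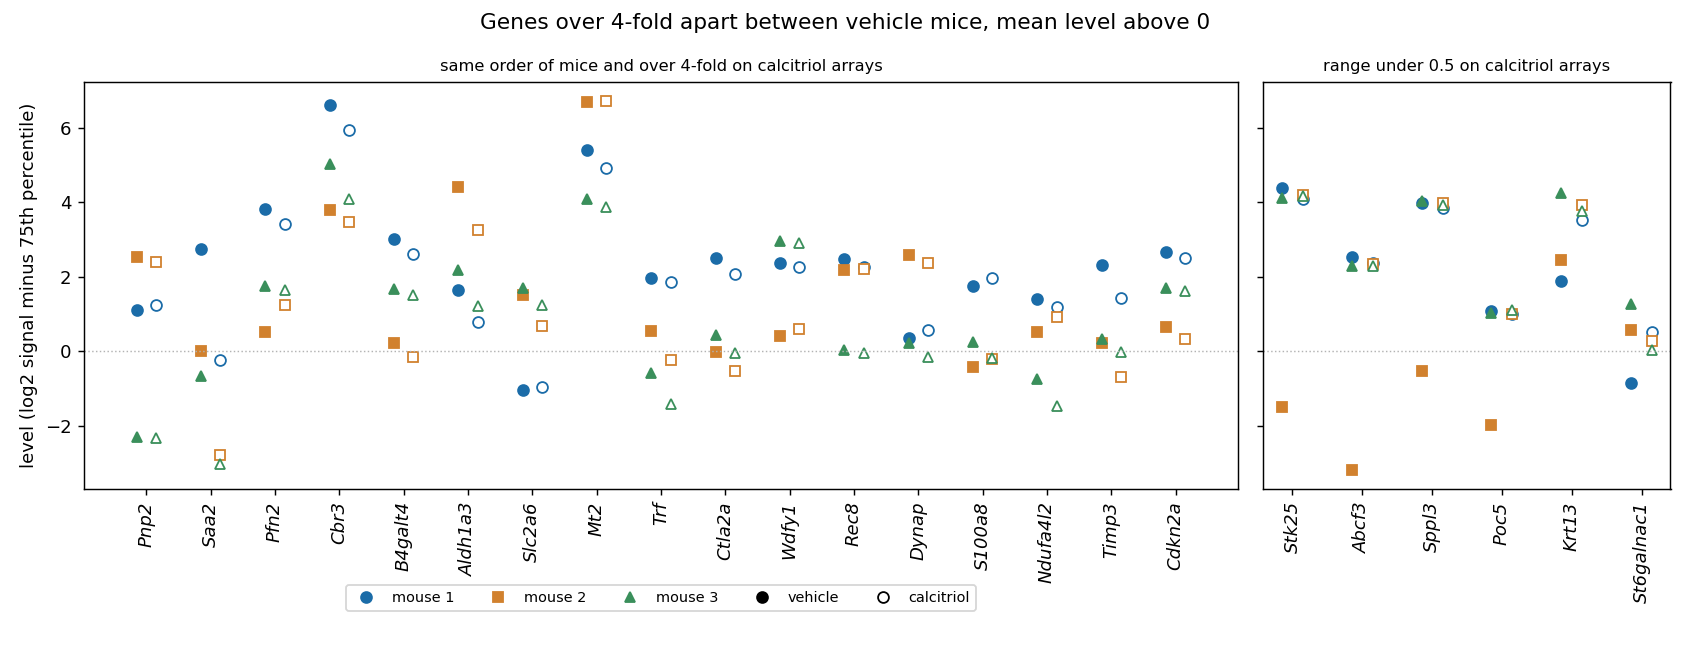
Level (log2, y axis) on vehicle (filled) and calcitriol (hollow) arrays of the 3 mice, for the genes with a mean above 0 that lay over 4-fold apart between vehicle cultures. In the 17 genes of the left panel each mouse kept its place, and in the right panel Stk25, Abcf3, Sppl3 and Poc5 were low on mouse 2's vehicle array only.

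Promoter sequence, which played no part in the calls, differed between genes on and off. RefSeq (GRCm38.p6) gave a promoter of 300 bases, 250 before to 50 after the start, for 16739 of the 21133 genes, the first listed where a gene had several. CG dinucleotides, which cluster in the promoters of widely used genes, numbered 20 in the median promoter of 10744 genes on, against 3 in that of 2785 genes off and 5 with mixed calls. Without the olfactory and vomeronasal receptor families the genes off had a median of 5. At least 10 CG dinucleotides stood in 76.8% of promoters of genes on and in 25.6% of those of genes off. The letters TATAAA on the gene's strand, 50 to 11 bases before the start, stood in 2.04% of promoters on and 6.18% off, against 2.64% of all 27025 promoters. The lists differed in the same measure. The median promoter held 24 CG dinucleotides for proliferation genes (24 promoters) and 18 for stem cell genes (22 promoters). It held 4 for absorptive colonocyte (27 promoters), 7 for goblet (18) and 6 for fetal-like genes (13), although nearly all members of these lists were on. Of the goblet promoters 38.9% held at least 10.

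Promoters of markers from both ends of that range are given here, 5′ to 3′, with CG dinucleotides in capitals, and TATAAA too where it stands in the window just named. Cdx2 (chr5:147307200-147307499, minus strand, 18 CG) and Chga (chr12:102554691-102554990, plus strand, 21 CG) are of the CG-rich kind. Muc2 (chr7:141690090-141690389, plus strand, 6 CG), Krt20 (chr11:99438104-99438403, minus strand, 6 CG) and Slc26a3 (chr12:31437969-31438268, plus strand, 1 CG) are CG-poor, and Krt20 and Slc26a3 have TATAAA in the window. Lgr5 has no sequence here.
Cdx2: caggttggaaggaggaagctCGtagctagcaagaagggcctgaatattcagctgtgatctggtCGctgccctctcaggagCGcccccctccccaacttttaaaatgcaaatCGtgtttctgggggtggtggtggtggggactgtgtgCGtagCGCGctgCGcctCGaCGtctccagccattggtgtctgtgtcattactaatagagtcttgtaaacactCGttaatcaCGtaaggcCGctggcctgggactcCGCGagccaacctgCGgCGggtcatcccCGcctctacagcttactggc
Chga: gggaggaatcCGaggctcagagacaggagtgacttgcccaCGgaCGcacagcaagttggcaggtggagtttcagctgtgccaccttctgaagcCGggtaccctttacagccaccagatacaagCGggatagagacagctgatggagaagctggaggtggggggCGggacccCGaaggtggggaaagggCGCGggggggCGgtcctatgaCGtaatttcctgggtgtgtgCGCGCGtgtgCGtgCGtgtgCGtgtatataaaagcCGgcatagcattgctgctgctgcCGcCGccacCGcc
Muc2: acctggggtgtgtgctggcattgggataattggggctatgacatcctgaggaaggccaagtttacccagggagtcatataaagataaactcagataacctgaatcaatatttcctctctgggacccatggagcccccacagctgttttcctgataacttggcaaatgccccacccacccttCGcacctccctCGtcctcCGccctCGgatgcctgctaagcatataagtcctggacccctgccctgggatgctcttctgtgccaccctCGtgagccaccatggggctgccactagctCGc
Krt20: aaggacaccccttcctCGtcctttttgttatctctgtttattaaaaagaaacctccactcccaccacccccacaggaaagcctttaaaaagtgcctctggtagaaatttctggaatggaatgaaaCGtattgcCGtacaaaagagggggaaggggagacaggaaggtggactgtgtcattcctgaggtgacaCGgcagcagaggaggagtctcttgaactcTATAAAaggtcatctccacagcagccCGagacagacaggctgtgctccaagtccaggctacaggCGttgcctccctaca
Slc26a3: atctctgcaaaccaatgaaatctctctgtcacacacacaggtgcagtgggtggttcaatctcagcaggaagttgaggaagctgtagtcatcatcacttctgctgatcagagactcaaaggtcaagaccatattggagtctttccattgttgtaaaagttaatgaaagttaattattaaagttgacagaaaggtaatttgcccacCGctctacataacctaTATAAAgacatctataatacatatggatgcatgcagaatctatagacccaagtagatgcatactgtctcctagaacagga
All 5 genes were on in every mouse. The factor Cdx2 and the endocrine granule gene Chga thus share the promoter type of most genes on, while Muc2, Krt20 and Slc26a3 have few CG dinucleotides. A match is a description of letters and not evidence of binding or of a cause.

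**Figure D4:**
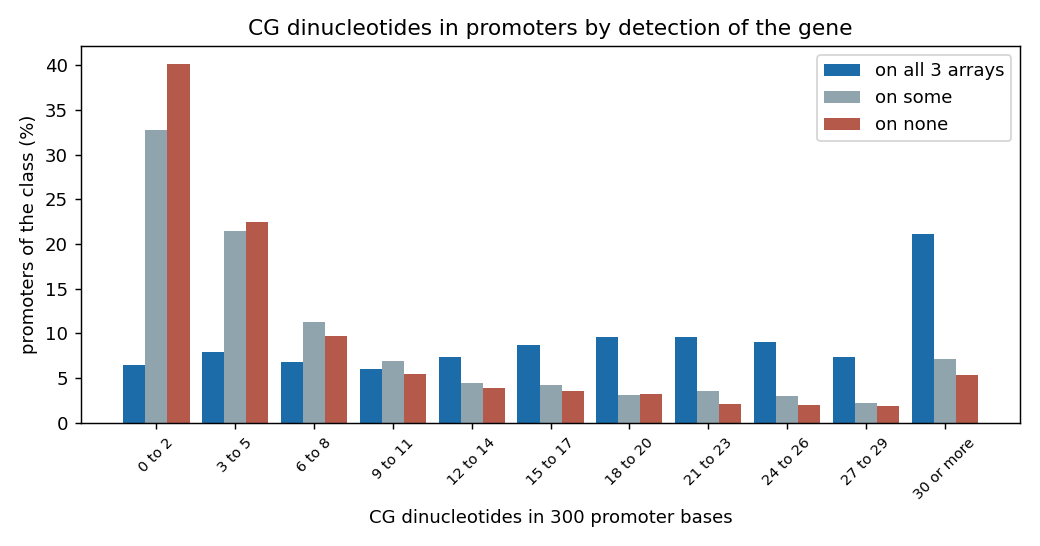
Share of promoters (%, y axis) by number of CG dinucleotides in 300 bases (x axis), for genes on all 3 arrays, on some and on none. Genes on none peak at 0 to 2, and genes on all 3 spread to 30 or more.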

How the data were processed

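Colon organoid RNA was hybridised to 1-colour Agilent arrays. Feature Extraction 11.5.1.1 gave the deposited spot intensity, per the file headers, with background subtracted in the processed signal, and the array annotation is on mm9. No normalization between arrays is recorded there. The processed intensity deposited by the authors was taken to log2 here, the 75th percentile of the gene spots of each array was subtracted, control and outlier spots were left out, and spots of a probe were averaged. Of 55681 probes, 28026 were named through RefSeq accessions (GRCm38.p6). A probe was on where over 50% of its spots were well above background. Values were given for core members and the 4 brightest members of 33 gene lists (1066 genes), the 30 brightest genes, and the 12 with the largest range. Members and lists were chosen with earlier results of these data known. Alternatives were the other detection flag, kept outliers, other probe and array rules, normexp (limma 3.58.1, R 4.3.3), quantile or median scaling, and leaving out each mouse. Normexp used the raw median intensity. Python 3.11.15 was used, and the range count was tested on simulated data. Genes without a named probe were not analysed here, and some named genes are not reported here. Array number limits the precision.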

Additional observations from a re-analysis of the deposited data

Results flagged for a closer look

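Of the 16194 probes that carry a chromosome region in place of a gene, 32.88% (5324) were well above background on all 3 arrays, and none of the results above uses them. By mouse the share was 40.0% in mouse 1, 63.7% in mouse 2 and 43.9% in mouse 3. The negative control spots were above background in 0.649%, 0.325% and 1.95% of cases and the odorant receptors in 11.8%, 48.3% and 18.2%, in the same order of mice. What these probes measure was not tested.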

How the results depend on the processing

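The number of genes on, 13438, stayed within 1.5 times under every alternative run, between 13339 (at least 50% of a gene's probes on) and 16337 (the other detection flag), and between 13639 and 14115 with a mouse left out. With the other flag the counts on moved to 17 for tuft, 17 for immune, 9 for fibroblast and muscle, 11 for endothelial, neural and glial, 11 for stomach, 26 for Wnt, R-spondin and EGF-family ligand genes and 2 for sex-linked genes. With at least 2 of 3 arrays they were 8 for stomach and 3 for sex-linked genes, of which 1 was on with any mouse left out. The 379 genes over 4-fold apart became 57 with normexp, 1776 with the median subtracted, 3774 over genes on in at least 1 array, and 98 to 333 with a mouse left out. The 45 with a level above 0, a limit chosen after seeing the data, became 1025 with the median subtracted, 35 with normexp and 15 to 26 with a mouse left out. The causes were not tested. No paired analysis was possible because no groups were compared and no result comes from a test.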
